A study of Mus musculus with 24 samples.

Results

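The collagen genes of the mouse were followed through sciatic nerves that carry plexiform neurofibroma. They were taken as every row of the deposited count table whose symbol reads Col, a number, the letter a and a number, which gave 44 genes of 24421. By the type of molecule they encode, 11 are fibrillar, 6 belong to type IV of basement membranes, 9 are FACIT collagens (fibril-associated collagens with interrupted triple helices) and 18 are of other types.

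Every one of the 24 nerves came from a mouse of the genotype Nf1 flox/flox PostnCre+, in which a Cre recombinase driven from the periostin (Postn) promoter deletes Nf1, a gene whose product restrains RAS. Groups of 6 libraries each received vehicle, the ERK1/2 inhibitor LY3214996 (here ERKi), the CDK4/6 inhibitor abemaciclib (here CDKi) or abemaciclib and LY3214996 together (here the combination) for 1 week. All groups carry these alleles, so the comparisons are between treatments of such nerves, and no nerve with intact Nf1 enters them. The labels give no age, and they do not say whether each library is a separate animal, so p-values measure the spread between these libraries.

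Collagens are proteins of 3 chains wound into a triple helix. Fibrillar collagens are secreted as procollagens, trimmed and assembled into the fibrils that give tissue its tensile strength, FACIT collagens sit on the surface of those fibrils, and type IV collagen forms the network of basement membranes. In peripheral nerve, fibroblasts of the endoneurium and epineurium make fibrillar collagen, while Schwann cells, perineurial cells and blood vessels are each wrapped in a type IV basement membrane. Neurofibromas are known for a matrix rich in collagen.

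Total counts ran from 5391543 to 42321550 per library, so that 3 counts, the limit a count of 0 allows, corresponded to between 0.0709 and 0.556 CPM (counts scaled to a common library total), covering counting error only. No pair of libraries within a group was a duplicate. Some libraries stood apart in RNA that is not collagen. A total of 6 held little neuronal RNA (2 each of vehicle, CDKi and the combination). The summed CPM of the 10 neuron markers ran from 35.1 to 473 in these 6 and from 1493 to 7703 in the others. Another feature was liver RNA, which 3 libraries held, with Alb, the albumin gene, above 100 CPM (ERKi 1 library, CDKi 2 libraries). The numbers in the sample titles fall into a lower and an upper series, with 2, 4, 3 and 3 libraries of the lower series in the vehicle, ERKi, CDKi and combination groups. The markers of fibroblasts and of Schwann cells were present in all libraries, the summed CPM of the 10 fibroblast markers lying between 3277 and 12204 and that of the 8 Schwann cell markers between 4308 and 21572. Apod and Dcn weigh most in the fibroblast sum, with vehicle means of 5500 and 2897 CPM where the mean sum was 9730 CPM. In whole nerve, fewer cells of a type and less RNA per cell cannot be told apart, and this holds for every level below.

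Collagen mRNA in these nerves was dominated by the chains of types I and III. Expressed per kb of the longest coding transcript and averaged over all 24 libraries, Col1a2 reached 283 CPM per kb, Col1a1 276 CPM per kb and Col3a1 209 CPM per kb. Next in order came Col15a1, a collagen of basement membrane zones, at 118 CPM per kb, and Col4a1 at 99.4 CPM per kb. Type V (Col5a2 at 87.4, Col5a3 at 65.8 and Col5a1 at 56.9 CPM per kb), type VI (Col6a1 at 66.2 CPM per kb) and Col4a2 (63.7 CPM per kb) followed. In the vehicle group alone the first 3 could not be ordered against each other, since Col1a1 stood at 406 ± 171 (SD), Col1a2 at 374 ± 97.7 and Col3a1 at 304 ± 133 CPM per kb (n = 6 each). The chains that cartilage is known for were low, Col2a1 at 5.26 and Col9a2 at 8.28 CPM per kb, and Col10a1, the collagen of hypertrophic cartilage, was at 0.0358 CPM per kb.

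**Figure D1:**
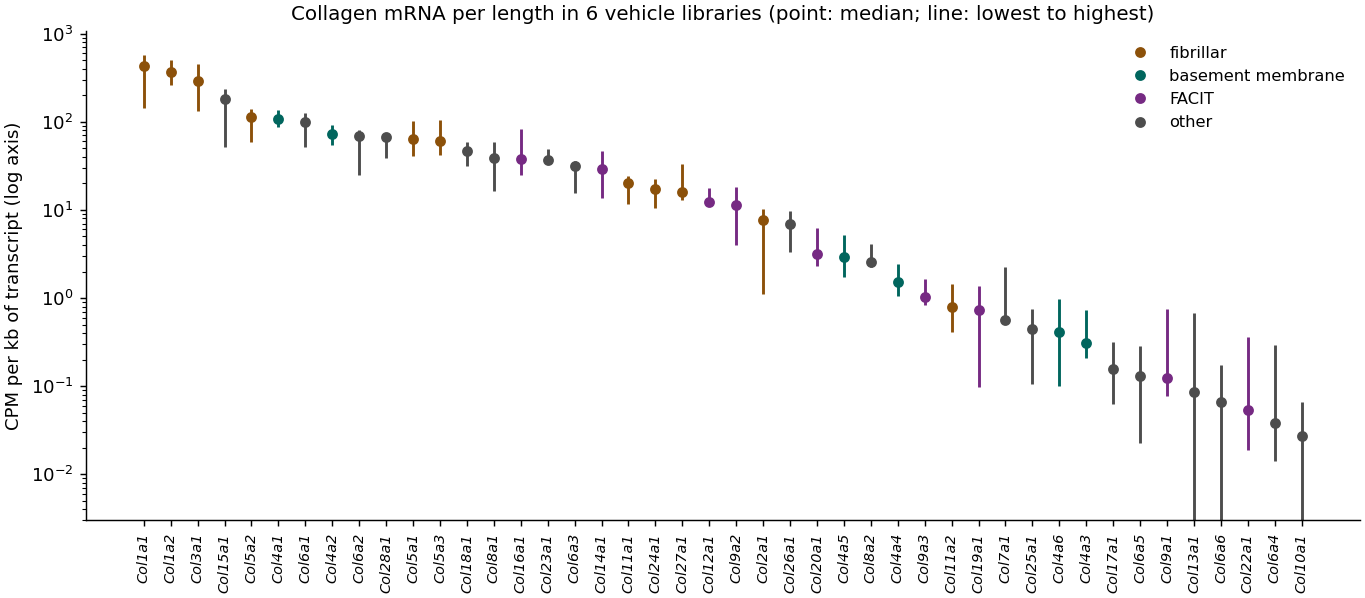
Level of each of the 44 collagen genes per kb of transcript in the 6 vehicle libraries (CPM per kb, log axis), the point being the median and the line running from the lowest to the highest library, coloured by class. Lines that reach the bottom axis include a library with a count of 0. The fibrillar chains Col1a1, Col1a2 and Col3a1 lead, and the 6 type IV chains spread over a wide range, from Col4a1 down to Col4a3.

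The filter on low counts (edgeR, at least 10 counts in enough libraries) passed 39 of the 44 genes. All 11 fibrillar and all 6 type IV genes passed, as did 8 of 9 FACIT genes and 14 of 18 of the others. Not tested were Col9a1, Col6a4, Col6a6, Col10a1 and Col13a1, whose summed counts over 24 libraries were 181, 121, 129, 44 and 147. Col9a1, which pairs with the Col9a2 chain in cartilage, had a highest count of 20 in any library and a median of 0.479 CPM in vehicle and 0.312 CPM in the combination.

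All collagen genes together took 0.785% of the counts in the lowest vehicle library, 1.36% at the median and 1.59% in the highest. Under the combination these values were 0.430%, 0.730% and 0.784%, so that the highest combination library lay just under the lowest vehicle library, vehicle 4. These shares use library totals before TMM scaling. On scaled totals combination 5 (0.779% unscaled, scaling factor 0.912) lies above vehicle 4 (scaling factor 0.966), so the groups overlap there. The ERKi libraries ran from 0.251% through 1.05% to 1.35% and the CDKi libraries from 0.537% through 1.02% to 1.85%, and both overlapped vehicle. In ERKi and the combination, the library with the least collagen (ERKi 3 and combination 2) had its group's highest sum of neuron markers. In vehicle and CDKi it did not. The 2 title series gave the same order of the medians for vehicle and the combination, 1.36% against 0.708% in the lower and 1.28% against 0.779% in the upper. Without the liver-positive libraries the ERKi range narrowed to 0.807% to 1.35% and the CDKi range to 0.915% to 1.3%. Without the libraries poor in neuronal RNA the medians were 1.08% for vehicle, 1.05% for ERKi, 0.943% for CDKi and 0.698% for the combination. No ERKi library was poor in neuronal RNA. The vehicle libraries left out were vehicle 1 and vehicle 5, at 1.55% and 1.59% collagen.

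The shares of the classes are given by library, and abundant chains weigh most in them. No test compared the classes. Fibrillar genes held a median of 0.860% of the counts in vehicle and 0.425% in the combination, and the other types 0.30% and 0.145%. For type IV the medians were 0.122% and 0.108%, with ranges from 0.0976% to 0.140% in vehicle and from 0.0462% to 0.141% in the combination, where combination 2 and combination 3 lay below every vehicle library. As a share of collagen counts, type IV made up 9.08% in the median vehicle library and 14.4% in the median combination library, and the groups overlapped, since vehicle 4 reached 17%. FACIT genes lay at 0.0615% and 0.0447% at the median and overlapped widely.

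**Figure D2:**
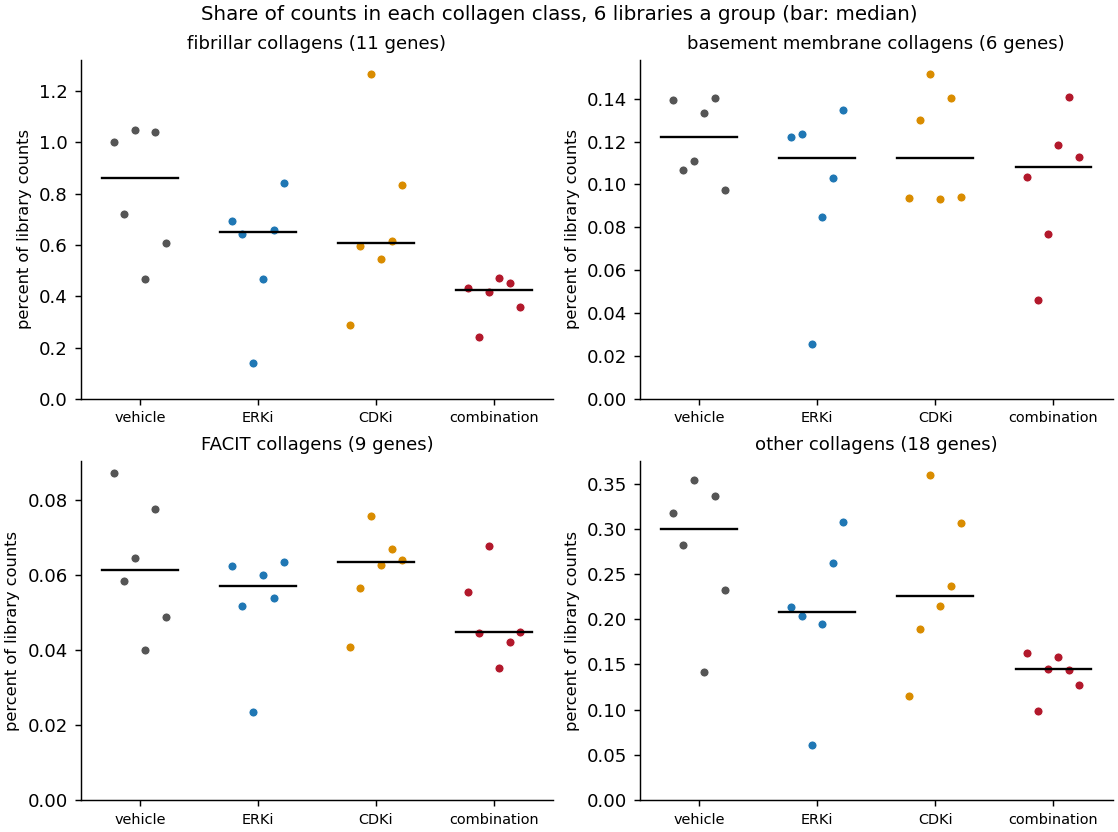
Percent of a library's counts in each class of collagen genes (vertical axis) for the 6 libraries of each group, each point being a library and the bar the group median. Every class has its lowest median under the combination. In fibrillar and other collagens vehicle 4 reaches into the combination's range. In type IV collagens 4 of the 6 combination libraries lie within or just above the vehicle range and 2 below it.

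The combination was compared with vehicle to ask what both drugs do together to the collagen genes. At an adjusted p under 0.05 (edgeR's quasi-likelihood test, Benjamini-Hochberg over 15385 genes), 1 of 39 collagen genes was called, Col9a2, which fell, and none was called higher. Among all genes tested 0.123% were called. A further set of genes had an unadjusted p under 0.05 without passing the adjustment: with Col9a2 they made 15 collagen genes, all with lower means in the combination, or 38.5% of those tested, against 6.58% of all genes in that direction. None had a higher mean at that level, where 4.93% of all genes did. The count of 15 was 6 in the lower title series, 15 in the upper and 10 without the neuron-poor libraries. In the upper series 1 collagen gene was higher at that level. Each of these settings holds fewer libraries, and the share of all genes at that level was not computed for them. A lower count there cannot be told from the effect of fewer libraries. Collagen genes varied together between libraries, with a median r of 0.555 between fibrillar pairs, so these are not 15 separate observations. The median log2 fold change of the 39 genes was -0.50, against 0.04 for all genes tested, and 30 of the 39 were below 0, as were 43.6% of all genes.

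Col9a2 (chr4:121039385-121055322, plus strand, GRCm38) encodes a chain of type IX collagen, a FACIT collagen that coats type II fibrils in cartilage. Its levels were 11.6, 33.2 and 53.4 CPM in the lowest, median and highest vehicle library and 7.20, 10.3 and 17.1 CPM under the combination. All 6 combination libraries lay under the vehicle mean, and the groups overlapped because vehicle 4, at 11.6 CPM, fell inside the combination's range. The log2 fold change was -1.73 ± 0.34 (SE), or 3.31-fold lower, with an adjusted p of 0.0399 by edgeR. This call is close to the threshold: leaving out 1 library at a time gave adjusted p values between 0.0119 and 0.118, and 18 of the 24 such fits lost the call. The other alternatives gave log2 fold changes between -1.86 and -1.43, and 7 of those 14 did not call it. Its partner chain Col9a3 did not pass the test, with a mean of 3.62 CPM in vehicle and 3.16 CPM in the combination. Within libraries, the ratio of Col9a2 to Col9a3 counts was 3.91, 10.49 and 12.95 (lowest, median, highest) in vehicle and 2.60, 2.96 and 4.94 in the combination.

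The promoter of Col9a2 is shown because it is the gene that passed the test. This is the RefSeq window from 250 bases before to 50 after the start annotated by RefSeq on GRCm38.p6, chr4:121039316-121039615, plus strand, with matches to the GC box in capitals. RefSeq starts can differ from those of the gene models quoted here, which come from GENCODE. The Col9a2 gene model begins inside this window.
Col9a2: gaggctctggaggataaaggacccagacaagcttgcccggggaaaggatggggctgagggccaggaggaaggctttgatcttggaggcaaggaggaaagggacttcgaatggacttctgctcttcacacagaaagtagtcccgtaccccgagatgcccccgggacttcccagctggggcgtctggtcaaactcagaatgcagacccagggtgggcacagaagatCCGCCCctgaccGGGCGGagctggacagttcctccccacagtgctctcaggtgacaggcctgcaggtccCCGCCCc

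Of the other cartilage chains, Col2a1 (chr15:97975602-98004695, minus strand), which forms type II fibrils, had the largest log2 fold change of the family, -2.38 ± 0.58 (SE), and did not pass the adjustment (edgeR adjusted p = 0.0966). Its levels were 5.71, 39.3 and 52.9 CPM in vehicle and 2.53, 6.92 and 10.8 CPM in the combination. Vehicle 4 was again the library that overlapped, and the other 5 vehicle libraries stood at 32.6 CPM or more. Col2a1 was also the collagen gene with the largest difference between the combination and CDKi (log2 fold change -2.44 ± 0.58, adjusted p = 0.239), the CDKi group being spread from 10.3 to 119 CPM. Col11a1, which belongs to the same cartilage fibrils and is found in other tissues too, stood at a mean of 140 CPM in vehicle and 98.6 CPM in the combination (adjusted p = 0.468). Col11a2 stood at 5.14 and 4.95 CPM (adjusted p = 0.969).

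The chains of the major fibrils differed among themselves in how far the groups lay apart. Type I collagen is built of a pair of α1 chains, from Col1a1 (chr11:94936224-94953042, plus strand), and 1 α2 chain, from Col1a2 (chr6:4504814-4541544, plus strand). Col1a1 was at 844, 2526 and 3441 CPM in vehicle and at 359, 648 and 975 CPM in the combination, a log2 fold change of -1.82 ± 0.51 (SE; edgeR adjusted p = 0.136). Col1a2 was at 1401, 1980 and 2711 CPM in vehicle and at 589, 1029 and 1437 CPM in the combination, -0.97 ± 0.34 (adjusted p = 0.227). For both genes all 6 combination libraries were below the vehicle mean, and vehicle 4 was the vehicle library within the combination's range. Col3a1 (chr1:45311538-45349706, plus strand), whose homotrimer forms thin fibrils with type I, was at 730, 1599 and 2537 CPM against 389, 605 and 868 CPM, -1.43 ± 0.44 (adjusted p = 0.174).

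Type V collagen, which nucleates fibrils, lay closer to vehicle. Col5a1 had a mean of 575 CPM in vehicle and 384 CPM in the combination (log2 fold change -0.58 ± 0.32, adjusted p = 0.505), Col5a2 of 704 and 525.9 CPM (-0.42 ± 0.28, adjusted p = 0.595) and Col5a3 of 406 and 388 CPM (-0.06 ± 0.34, adjusted p = 0.965). Col24a1 (0.36 ± 0.39) and Col27a1 (0.05 ± 0.31), the remaining fibrillar genes, had estimates above 0 that did not pass. Of the 11 fibrillar genes, 4 had an unadjusted p under 0.05 (Col1a1, Col1a2, Col2a1 and Col3a1) and the class median was -0.50.

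Because a ratio within a library does not depend on scaling, Col1a1 was also set against Col1a2. The ratio of their counts was 0.602, 1.18 and 1.54 in vehicle (lowest, median, highest), 0.774, 0.948 and 1.38 under ERKi, 0.463, 1.02 and 1.53 under CDKi and 0.497, 0.644 and 0.897 in the combination. Outside vehicle 4 the vehicle ratios were all at 1.14 or more, above every combination library. Col1a1 against Col4a1 gave 1.08, 3.32 and 5.21 in vehicle and 0.641, 1.32 and 1.59 in the combination, with vehicle 4 again the overlapping library.

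**Figure D3:**
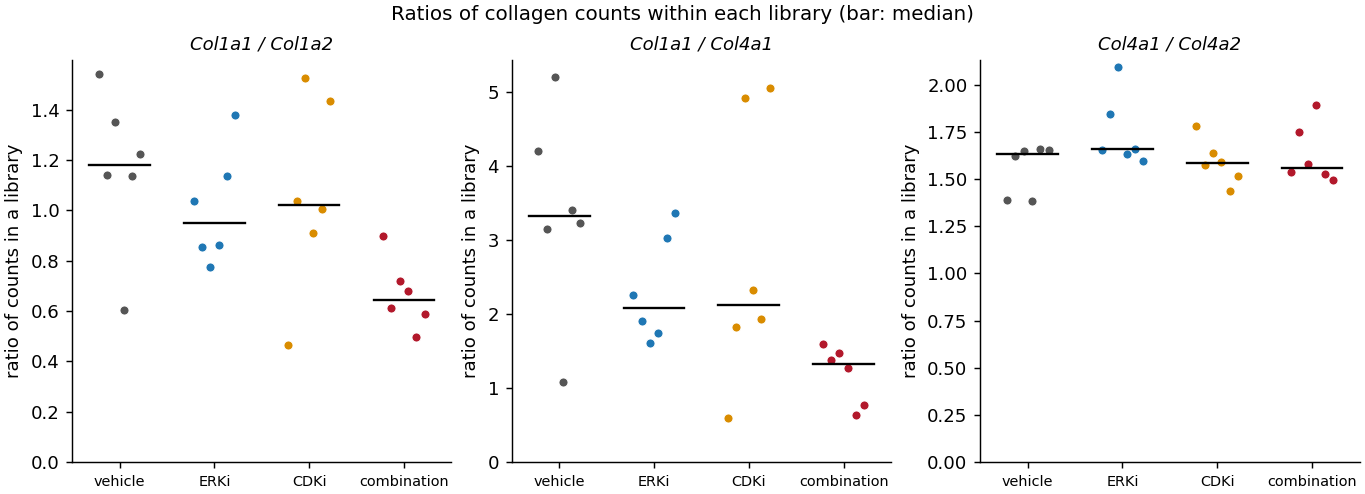
Ratios of counts between pairs of collagen genes within each library (vertical axis, starting at 0), 6 libraries a group, with the group median as a bar. Col1a1 to Col1a2 and Col1a1 to Col4a1 have their lowest medians in the combination (0.644 and 1.32), and Col4a1 to Col4a2 stays between 1.39 and 2.10 in all 24 libraries.

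The promoter of Col1a2, which with Col1a1 led the family per length, is shown with matches to the GC box and the CCAAT box in capitals (RefSeq, GRCm38.p6, chr6:4505368-4505667, plus strand). This window belongs to the RefSeq start and lies inside the GENCODE gene model given above, which begins at 4504814. Both boxes are common promoter elements that bind general activators.
Col1a2: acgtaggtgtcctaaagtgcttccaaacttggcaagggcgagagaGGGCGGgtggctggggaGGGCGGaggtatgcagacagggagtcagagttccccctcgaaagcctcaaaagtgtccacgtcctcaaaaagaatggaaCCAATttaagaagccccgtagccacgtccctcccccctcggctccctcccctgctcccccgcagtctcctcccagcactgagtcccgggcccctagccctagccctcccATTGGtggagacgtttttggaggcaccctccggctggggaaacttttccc

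Of the 6 type IV genes, 5 were below 0 in the combination against vehicle, 2 had an unadjusted p under 0.05 (Col4a4 and Col4a5), and the class median was -0.44. Type IV collagen of most tissues is built from Col4a1 (chr8:11198423-11312826, minus strand) and Col4a2 (chr8:11312805-11449287, plus strand). Col4a1 was at 581, 703 and 903 CPM in vehicle and at 260, 631 and 917 CPM in the combination, a log2 fold change of -0.23 ± 0.30 (edgeR adjusted p = 0.839). Col4a2 was at 351, 465 and 588 CPM against 148, 399 and 599 CPM, -0.29 ± 0.33 (adjusted p = 0.814). In both genes the groups overlapped, with combination 2 and combination 3 below every vehicle library and combination 5 just above the highest. A p above the threshold does not show that the levels were alike.

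The other type IV chains were less abundant. Col4a5 (chrX:141475385-141689234, plus strand), a chain of the α5 networks, was at 11.2, 19.3 and 33.8 CPM in vehicle and at 7.39, 9.07 and 18.7 CPM in the combination (log2 fold change -0.93 ± 0.30, adjusted p = 0.195). Its neighbour Col4a6 had means of 2.99 and 1.75 CPM (-0.74 ± 0.39, adjusted p = 0.481). Col4a4 was at a mean of 16.2 CPM in vehicle, 10.3 CPM under ERKi, 14.8 CPM under CDKi and 10.8 CPM in the combination, and the difference between ERKi and vehicle, -0.65 ± 0.21, had the smallest p of any collagen gene in that comparison without passing (adjusted p = 0.672). Col4a3, which forms trimers with the α4 and α5 chains, had means of 3.55 CPM in vehicle and 3.65 CPM in the combination.

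Type IV genes lie in head-to-head pairs in the genome. The annotated starts of Col4a1 and Col4a2 are 21 bp apart, those of Col4a3 and Col4a4 72 bp and those of Col4a5 and Col4a6 1309 bp. Across the 24 libraries, log2 CPM of Col4a1 and Col4a2 had a Pearson r of 0.985, which was also 0.985 after the group means were removed. Col4a3 and Col4a4 gave 0.722, or 0.836 with group means removed, and Col4a5 and Col4a6 gave 0.719 and 0.70. These are descriptions over libraries that share depth, tissue composition and handling. The count ratio of Col4a1 to Col4a2 had medians of 1.64, 1.66, 1.58 and 1.56 in vehicle, ERKi, CDKi and combination. The gene models overlap by 22 bp, and since the strand setting of the counting is not known, how reads there were assigned is not known either.

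The window of Col4a1 is shown because it holds the start of Col4a2 as well (RefSeq, GRCm38.p6, chr8:11312777-11313076, minus strand). Capitals mark the 78 bases that it shares with the Col4a2 window, chr8:11312777-11312854.
Col4a1: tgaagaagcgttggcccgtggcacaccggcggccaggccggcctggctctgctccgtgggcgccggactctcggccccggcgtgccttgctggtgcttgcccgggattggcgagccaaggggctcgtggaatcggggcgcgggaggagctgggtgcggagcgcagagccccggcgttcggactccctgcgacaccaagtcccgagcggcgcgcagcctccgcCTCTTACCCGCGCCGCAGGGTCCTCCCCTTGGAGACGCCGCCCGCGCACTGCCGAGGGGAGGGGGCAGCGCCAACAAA

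Among the FACIT collagens beside Col9a2, Col14a1 and Col12a1, which link fibrils to their surroundings, had lower means in the combination without passing the test. Col14a1 was at 88.1, 189 and 299 CPM in vehicle and at 79.6, 101 and 143 CPM in the combination (-0.87 ± 0.29, edgeR adjusted p = 0.212). Col12a1 had means of 152 and 106 CPM (-0.52 ± 0.25, adjusted p = 0.434). Col16a1, at 229 and 240 CPM, differed from vehicle by less than its error (0.07 ± 0.29, adjusted p = 0.958). Of the 8 FACIT genes tested, 5 were below 0 and the class median was -0.34.

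Type VI collagen, which forms beaded filaments near basement membranes and around cells, is assembled from a chain each of Col6a1, Col6a2 and Col6a3. Col6a1 (chr10:76708792-76726168, minus strand) was the collagen gene whose combination and vehicle libraries did not overlap, at 212, 404 and 510 CPM in vehicle and at 106, 174 and 205 CPM in the combination. Of all genes tested, 0.578% were lower in the combination without overlap. Its log2 fold change was -1.18 ± 0.36 (edgeR adjusted p = 0.158). Col6a2 (chr10:76595762-76623630, minus strand) was at 116, 320 and 373 CPM against 63.4, 106 and 120 CPM (-1.55 ± 0.41, adjusted p = 0.122), and Col6a3 (chr1:90765923-90843971, minus strand) at 157, 315 and 362 CPM against 129, 185 and 199 CPM (-0.74 ± 0.30, adjusted p = 0.314). In all 3 genes vehicle 4 was the lowest vehicle library and combination 4 the highest combination library. Col6a1 and Col6a2 had an r of 0.986 across libraries (0.987 with group means removed), and Col6a1 and Col6a3, which lie on different chromosomes, 0.920 (0.919).

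The Col6a1 window (RefSeq, GRCm38.p6, chr10:76725995-76726294, minus strand) is shown because, of the 35 collagen genes with a window, it held the only match to the AP-1 motif, the element bound by Fos and Jun, which is in capitals.
Col6a1: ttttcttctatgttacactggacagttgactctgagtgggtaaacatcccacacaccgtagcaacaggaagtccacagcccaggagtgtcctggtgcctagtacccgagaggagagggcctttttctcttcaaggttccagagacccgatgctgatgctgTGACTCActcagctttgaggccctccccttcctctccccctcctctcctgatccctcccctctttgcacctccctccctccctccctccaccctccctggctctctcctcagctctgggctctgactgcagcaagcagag

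RefSeq windows of 300 bases were matched by symbol to 35 of the 44 genes, giving 38 windows. They were searched on both strands for 6 short motifs, any overlaps being counted. The GC box GGGCGG was in 23 of 38 collagen windows (60.5%) and in 35.7% of 32841 windows of all genes, the CCAAT box CCAAT in 13 (34.2%) and 37.4%, and the TATA box TATAAA in 5 (13.2%) and 13.6%. The AP-1 motif TGANTCA was in 1 collagen window (2.63%) and in 7.81% of all windows, the SOX motif AACAAT in 1 (2.63%) and in 10.7%, and the ETS motif CCGGAAGT in 0 and in 3.89%. A match describes letters in the window and is not a binding site.

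The multiplexins Col15a1 and Col18a1 are related collagens of basement membrane zones that carry endostatin-like domains. Col15a1 (chr4:47208161-47313167, plus strand) was at 265, 938 and 1226 CPM in vehicle and at 179, 298 and 388 CPM in the combination (-1.56 ± 0.41, edgeR adjusted p = 0.123), again with vehicle 4 as the overlapping library. Col18a1 was at 175, 264 and 326 CPM against 156, 226 and 304 CPM (-0.20 ± 0.25, adjusted p = 0.833). The ratio of Col15a1 to Col18a1 counts was 1.51, 3.54 and 4.95 in vehicle and 0.978, 1.28 and 1.92 in the combination, and vehicle 4 was the vehicle library within the combination's range.

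Col8a1, a short-chain collagen that forms networks beneath endothelium and is made by other cells too, was at 83.3, 197 and 302 CPM in vehicle and at 28.8, 53.6 and 98.4 CPM in the combination (-1.67 ± 0.43, adjusted p = 0.110). Its partner Col8a2 had means of 12.4 and 8.35 CPM (-0.56 ± 0.34, adjusted p = 0.562), and the pair had an r of 0.294 over the libraries (0.0653 with group means removed). Col28a1, a collagen known from peripheral nerve and its glia, had means of 259 and 190 CPM (-0.45 ± 0.24, adjusted p = 0.50). Col7a1 of anchoring fibrils (8.41 and 9.48 CPM) and Col17a1 of hemidesmosomes (0.996 and 0.846 CPM) were low and did not pass.

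**Figure D4:**
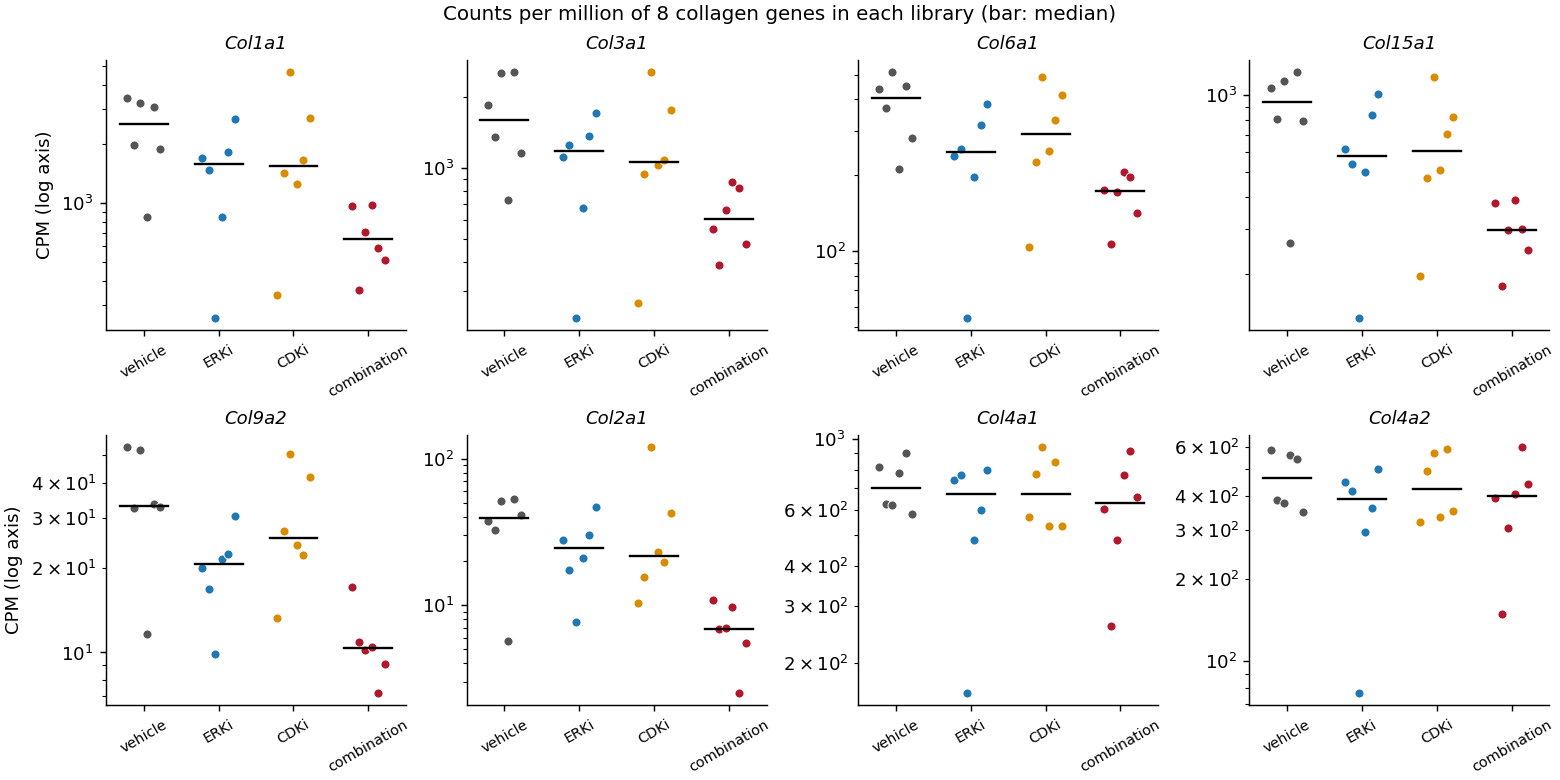
CPM of 8 collagen genes in each of the 24 libraries (log axis), with the group median as a bar. In Col1a1, Col3a1, Col15a1, Col9a2 and Col2a1 the combination libraries lie under all vehicle libraries except vehicle 4, in Col6a1 under all of them, and in Col4a1 and Col4a2 on both sides of the vehicle range, 2 below it, 3 within it and 1 above.

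Vehicle 4 touched most of these results. It held the least collagen of its group (0.785% of counts), and its summed fibroblast markers (12204 CPM) were the highest of all 24 libraries, while the mean log2 CPM of those markers, 6.09, was below the vehicle median of 6.19. Its Schwann cell markers (17245 CPM) were within the vehicle range of 10407 to 18201 CPM. It was singled out after its collagen values were seen, as the vehicle library that overlapped the combination, so counts without it follow in part from that choice. Without it, 11 collagen genes lay lower in the combination with no overlap (Col1a1, Col1a2, Col2a1, Col3a1, Col6a1, Col6a2, Col6a3, Col8a1, Col9a2, Col14a1 and Col15a1), where 1.68% of all genes did. In the edgeR fit without it 3 collagen genes were called (Col9a2, Col2a1 and Col15a1), at a background of 0.606%. Without the 6 neuron-poor libraries 3 did not overlap (Col6a1, Col8a1 and Col12a1, background 2.52%). No collagen gene was called there, where 0% of all genes were. Without the 3 liver-positive libraries, all of which belong to the single-drug groups and enter this contrast through the estimate of the spread, 9 were called, all lower (Col9a2, Col6a2, Col2a1, Col1a1, Col15a1, Col6a1, Col3a1, Col6a3 and Col1a2, background 0.694%). Without ERKi 3, the liver-positive library with the least collagen, 2 were called (Col9a2 and Col6a2, background 0.349%). DESeq2 on all libraries called 8 (Col9a2, Col2a1, Col8a1, Col6a2, Col15a1, Col1a1, Col6a1 and Col3a1, background 1.70%), and limma-voom called none (background 0.188%).

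Neither drug alone gave a called collagen gene. For ERKi against vehicle 0 of 39 passed in edgeR, and 0% of all genes did. At an unadjusted p under 0.05 there were 2, Col4a4 and Col9a2, both lower, where 2.91% of all genes were lower and 3.43% higher at that level. With all libraries 0 collagen genes lay lower under ERKi with no overlap between the groups. Without vehicle 4, Col4a5 and Col9a2 did, as did 0.338% of all genes. That library was chosen for its collagen values, so this follows in part from the choice. DESeq2 and limma-voom likewise called no collagen gene in this comparison. The median log2 fold change was -0.42, and 34 of 39 genes were below 0 where 50% of all genes were. The class medians were -0.35 for fibrillar, -0.49 for type IV, -0.41 for FACIT and -0.50 for other types. Vehicle held 2 neuron-poor libraries and ERKi held 0. Without those 2, the median collagen share was 1.08% in vehicle and 1.05% in ERKi. Col1a1 was at 258, 1573 and 2682 CPM under ERKi (-0.73 ± 0.50, adjusted p = 0.672), Col3a1 at 232, 1180 and 1703 CPM, and Col9a2 at 9.89, 20.7 and 30.6 CPM (-0.83 ± 0.33, adjusted p = 0.672). The lowest value of each of these genes came from ERKi 3, which also had the lowest sums of fibroblast (3277 CPM) and Schwann cell (4308 CPM) markers. Its sum of neuron markers (7703 CPM) was the highest of all 24 libraries. What part this library's makeup had in the ERKi values was not tested.

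For CDKi against vehicle 0 of 39 genes passed, with a background of 0%, and none had an unadjusted p under 0.05 in edgeR, where 0.91% of all genes were lower and 2.21% higher at that level. DESeq2 and limma-voom called none here either. The median was -0.15 with 29 of 39 genes below 0, where 51.8% of all genes were, and the class medians lay between -0.17 and -0.10. Col1a1 was at 338, 1532 and 4627 CPM (-0.27 ± 0.49, adjusted p = 1.00) and Col2a1 at 10.3, 21.5 and 119 CPM. The extremes came from the liver-positive libraries, CDKi 1 being the lowest and CDKi 3 the highest in Col1a1, Col2a1, Col3a1, Col6a1 and Col15a1.

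**Figure D5:**
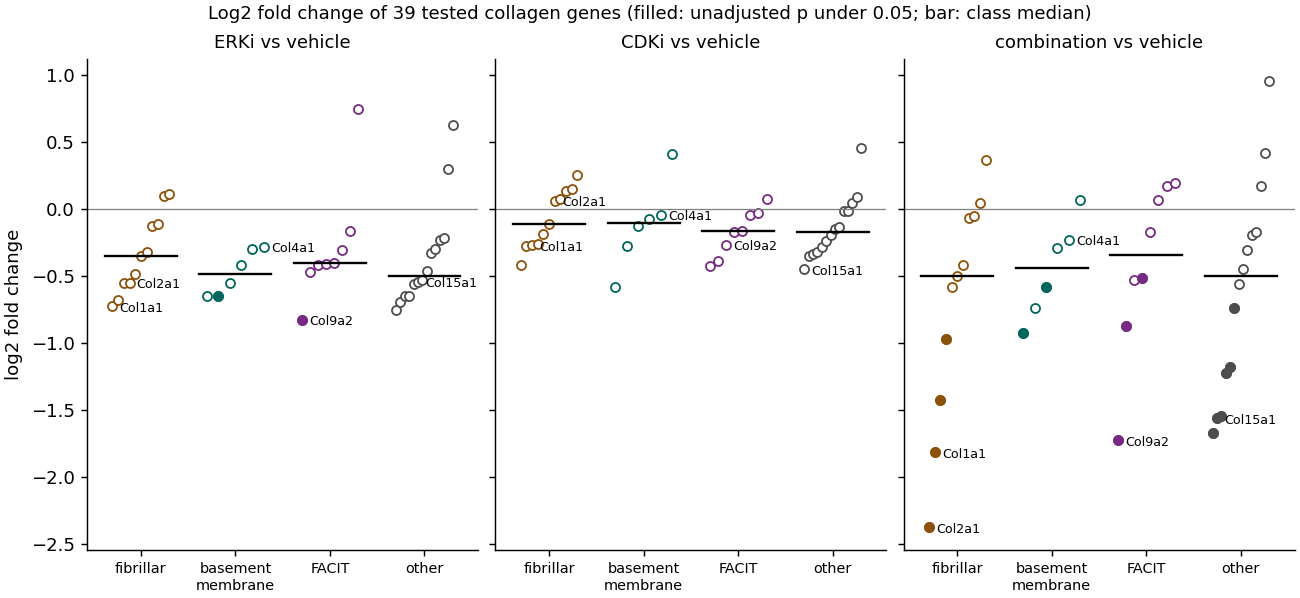
Log2 fold change against vehicle of the 39 tested collagen genes (points) by class for ERKi, CDKi and the combination, filled where the unadjusted p is under 0.05, with the class median as a bar. Filled points number 2 for ERKi, 0 for CDKi and 15 for the combination, and the 3 panels share the vehicle libraries.

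The comparisons between treated groups asked what the second drug adds. For the combination against CDKi 0 of 39 genes passed in edgeR (background 0.0065%), while DESeq2 called 2, Col2a1 and Col9a2 (background 0.507%). At an unadjusted p under 0.05, 15 genes were lower and none higher, against 4.71% of all genes lower and 2.36% higher, and the median was -0.35. The count of 15 was 7 without CDKi 3, the library with the most collagen, 7 without combination 2, 5 without the neuron-poor libraries and 4 in the lower title series. In that series 1 collagen gene was higher at that level. The share of all genes at that level was not computed for these settings, which hold fewer libraries. The lower counts may therefore not be particular to collagen genes. Col9a2 was at 13.3, 25.5 and 50.7 CPM under CDKi, and its difference was -1.46 ± 0.34 (edgeR adjusted p = 0.239). For Col8a1 it was -1.43 ± 0.42 (adjusted p = 0.400), for Col1a1 -1.54 ± 0.51 (adjusted p = 0.422) and for Col6a2 -1.19 ± 0.40 (adjusted p = 0.439). The type IV chains Col4a1 and Col4a2 differed by -0.19 ± 0.30 and -0.22 ± 0.33.

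For the combination against ERKi 0 of 39 passed, as did 0% of all genes. Here 6 genes had an unadjusted p under 0.05, all lower (Col2a1, Col9a2, Col15a1, Col8a1, Col6a2 and Col1a1), with 3.61% of all genes lower and 5.73% higher at that level. The median was -0.11, against -0.01 for all genes, and the type IV median was 0.06. DESeq2 and limma-voom called no collagen gene here. Col2a1 differed by -1.82 ± 0.57 (adjusted p = 0.434) and Col9a2 by -0.90 ± 0.33 (adjusted p = 0.454), while Col4a1 (0.05 ± 0.30) and Col4a2 (0.13 ± 0.33) lay above 0. ERKi against CDKi gave 0 called genes (background 0%), 1 with an unadjusted p under 0.05, Col4a4 (-0.52 ± 0.21, adjusted p = 0.770), where 2.53% of all genes were lower at that level, and a median of -0.26.

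Whether the drugs add up on the log scale was tested by the interaction, the combination minus both single effects. No collagen gene passed (0 of 39, background 0%), and Col2a1 alone had an unadjusted p under 0.05 (-1.89 ± 0.78, adjusted p = 0.988), with 2.09% of all genes lower at that level. The median over the family was -0.07. For Col1a1 the interaction was -0.82 ± 0.70, for Col9a2 -0.63 ± 0.47 and for Col4a1 0.10 ± 0.42. DESeq2 and limma-voom called no collagen gene for the interaction.

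The co-variation of the family was also described pair by pair, with group means removed. Among chains that share a trimer, Col1a1 with Col1a2 had an r of 0.939, or 0.870 without the liver-positive libraries, and Col6a1 with Col6a3 0.919, or 0.795 without them. Col3a1 and Col5a2, which lie 24614 bp apart on chromosome 1, reached 0.508, and the type V chains Col5a1 and Col5a2, which share a trimer and are both abundant, 0.603, or 0.468 without the liver-positive libraries. This was below the Col5a1 and Col11a1 pair that can share trimers (0.706) and below the scarcer type IV pairs. Col9a2 and Col9a3 reached 0.452 and Col11a1 and Col11a2 0.343. The median r was 0.555 over the 55 fibrillar pairs, 0.367 between fibrillar and type IV genes and 0.323 among the 15 type IV pairs.

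The genes that make and handle collagen were counted from fixed lists. Of 29 genes for collagen modification, folding, export, trimming and crosslinking, 0 passed in the combination against vehicle by edgeR, 26 were below 0 and 16 of these had an unadjusted p under 0.05, with a median of -0.44. Of all genes 0.123% passed, 43.6% were below 0 and 6.58% were lower at an unadjusted p under 0.05. Named after their values were seen, Serpinh1, the chaperone of procollagen, had means of 357 CPM in vehicle and 187 CPM in the combination, Adamts2, which trims procollagen, 97.1 and 39 CPM, and Creb3l1, a transcription factor for collagen genes, 33.0 and 12.9 CPM. Of 9 collagen receptors tested 0 passed and 7 were below 0, and of 8 small proteoglycans 0 passed and 6 were below 0, with 4 of each list lower at an unadjusted p under 0.05.

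Markers of cell types in the nerve were set beside these values. In the combination against vehicle, 8 of the 10 fibroblast markers were below 0 with a median of -0.27, and their summed level ran from 3907 to 11029 CPM against 7467 to 12204 CPM in vehicle. The sum was high in combination 4 (11029 CPM), whose collagen share was 0.784%, close to that of vehicle 4. Of these markers Dcn and Lum also stand in the list of proteoglycans. Of the 8 Schwann cell markers 3 were below 0 (median 0.05, sums of 6342 to 21572 CPM against 10407 to 18201 CPM), and of the 7 perineurial markers tested 4 were (median -0.17, sums of 465 to 963 CPM against 548 to 912 CPM). All 7 endothelial markers were above 0 (median 0.78, sums of 147 to 407 CPM against 96.2 to 190 CPM). Each of the 7 had an unadjusted p under 0.05, where 4.93% of all genes were higher at that level, and none passed the adjustment. Smooth muscle and pericyte markers were below 0 in 2 of 7 (median 0.20, sums of 209 to 478 CPM against 228 to 324 CPM). No defining marker of these types was at 0 in every library of a group. Of the tissue lists outside the nerve, all 7 adipocyte markers (median 1.31, sums of 31.6 to 155 CPM against 12.2 to 106 CPM) and all 5 skeletal muscle markers (median 3.76, sums of 0.841 to 60.9 CPM against 1.07 to 2.39 CPM) were above 0. Summed macrophage markers ran from 113 to 452 CPM against 223 to 380 CPM in vehicle. For neurons the sums were 56.6 to 4502 CPM against 43.9 to 3206 CPM, and for satellite glia 697 to 1036 CPM against 639 to 902 CPM. Outside the endothelial list, the markers of these lists that were lower at an unadjusted p under 0.05 by edgeR were Dcn, Lum, S100b, Tenm2 and Kcnj10. Those higher at that level were Dpt, Slc2a1, Notch3, Acta2, Myh11, Adipoq, Plin1, Dgat2 and Glul. None of these passed the adjustment. The part of cell type proportions in the collagen results was not tested.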

How the data were processed

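RNA of 24 sciatic nerve libraries was sequenced after removal of ribosomal RNA, per the labels' protocols, although the labels' molecule field names polyA RNA. FastQC, STAR, DESeq2 and mm10 appear in the submitters' processing notes without versions, and how reads were assigned to genes (tool, annotation, strand) is not given in the sources used here. Raw counts per gene were deposited for all libraries in 1 table. Groups come from the treatment labels, and replicates are numbered in accession order.

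Counts of all 24421 genes were filtered (filterByExpr, minimum count 10, minimum total 15), scaled by TMM and fitted with edgeR 4.0.16 (R 4.3.3) over all 24 libraries with a mean per group and 20 residual degrees of freedom. The robust quasi-likelihood test gave p-values, adjusted by Benjamini-Hochberg over 15385 genes (threshold 0.05) in each of 7 contrasts. Standard errors were derived from the fold change and its F statistic. CPM values use TMM-scaled totals, log2 CPM a prior count of 2, and lengths and gene coordinates come from GENCODE M21 (GRCm38). Alternatives were DESeq2 1.42.0, limma-voom (limma 3.58.1), other scalings and filters, other sets of libraries, and terms for title series, neuronal RNA and Xist. The fit was tested on simulated data.

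Neuron-poor libraries have a mean log2 CPM under 6 over the neuron markers, and liver-positive ones Alb above 100 CPM. The collagen genes were taken by their symbols. Genes were named if called in any contrast, if they had the smallest p of their class in a contrast, or as a main or cartilage chain on a fixed list; further chains, given as partners of these, were added after their values were seen. The gene family and all lists were chosen with earlier results of these data known.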

Additional observations from a re-analysis of the deposited data

Results flagged for a closer look

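In 8 of 120 combinations of a collagen measure and a group, 1 library lay far from the other 5 by Dixon's criterion at the 95% level, which chance alone meets in about 1 of 20 groups. ERKi 3 accounts for 4 of them, each low: Col18a1 at 82.5 CPM (the others from 208 to 280 CPM), Col5a1 at 99.2 CPM (455 to 593 CPM), Col6a3 at 49.8 CPM (229 to 321 CPM) and the FACIT share at 0.0235% of counts (0.0518% to 0.0635%). This library also held 4511 CPM of Alb, the lowest sums of fibroblast and Schwann cell markers and the highest sum of neuron markers (7703 CPM). Their part in these values was not tested. Col7a1, the anchoring fibril collagen, stood high in vehicle 4 at 21.03 CPM (4.97 to 9.06 CPM in the others) and in ERKi 1 at 11.7 CPM (3.32 to 6.46 CPM). Col2a1 was at 119 CPM in CDKi 3 (10.3 to 42.7 CPM), a library with liver RNA and little neuronal RNA. Col9a2 was at 17.1 CPM in combination 1 (7.20 to 10.9 CPM).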

How the results depend on the processing

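The count of collagen genes called in the combination against vehicle, 1 in the main analysis, depended on the processing. DESeq2 called 8 and the fit without liver-positive libraries 9. It was 0 with limma-voom (background 0.188%) and with no count filter (background 0.0256%). With only the groups compared (background 0.0674%) and with the title series as a term (background 0.104%) it was 0 too. The count was also 0 within the lower and within the upper title series and without neuron-poor libraries. In those settings 0% of all genes were called, so the 0 is not particular to collagen genes. Leaving out 1 library at a time gave 0 to 3. DESeq2 also called 2 genes in the combination against CDKi, where the main analysis called 0. The causes were not tested. No named gene with an unadjusted p under 0.05 by edgeR in the main analysis changed direction under these alternatives. Genes above that level were not examined for a change of direction. The median log2 fold change over the family in the combination against vehicle stayed between -0.64 and -0.38, and between -0.58 and -0.40 when single libraries were left out. No paired analysis was possible because the replicate numbers were given in accession order and the titles share no numbers between groups. Totals differ widely between libraries, so levels of scarce chains such as Col10a1 and Col9a1 rest on few counts.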
